A study of Mus musculus with 24 samples.

Results

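Ubiquitin-specific proteases and related deubiquitinases were examined in blood progenitors of mice with and without BAP1. The members were the genes whose platform symbol is USP, UCHL or OTUD followed by its number and letter, or OTUB1, OTUB2, JOSD1 or JOSD2, except Usp18. This rule found 60 genes among the 17741 genes named on the array, on 68 probes, and each gene was read on its brightest probe, by the mean over all arrays. Expression had been measured on 24 single-colour arrays hybridised with Cy5-labelled amplified RNA of sorted bone marrow cells. One sorted population, the LSK cells, lacked lineage markers, carried Sca1 and Kit and is rich in hematopoietic stem cells. The other, the myeloid progenitors, lacked lineage markers and Sca1 and carried Kit. All mice were C57BL/6 and, per the labels, received tamoxifen to delete BAP1 throughout the body. They carried the genotype label BAP1 WT or BAP1 KO, so that the 4 groups were WT and KO LSK cells and WT and KO myeloid progenitors. The sources used here do not give the Cre driver, the age of the mice or the treatment of WT mice beyond that statement. Each group held 2 mice with 3 arrays each, and no mouse gave both populations. Mice 1 and 3 gave WT and mice 2 and 4 KO LSK cells, and mice 5 and 6 gave WT and mice 7 and 8 KO myeloid progenitors; paired values below follow that order. A mouse, represented by the mean of its 3 arrays, is the unit of every main test below. Alternative settings that fit all arrays take the single array, with the mouse as a random block. Values are deposited log2 expression values.

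Ubiquitin is attached to lysines of target proteins by a cascade of enzymes, and deubiquitinases cut it off again, which reverses signals for degradation, trafficking, DNA repair and transcription. The ubiquitin-specific proteases (USP), ubiquitin C-terminal hydrolases (UCH), ovarian tumour proteases (OTU) and Josephin proteases are families of cysteine proteases. BAP1 is itself a UCH enzyme that, with ASXL partners, removes ubiquitin from histone H2A, a mark laid down by Polycomb repressive complexes. Several USPs act on the same histone or on H2B, and the genotype comparison asks whether the transcripts of other deubiquitinases differed where BAP1 was deleted.

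Uchl1 and Usp27x were the members that passed the test between the populations in both genotypes, and the 250 bases before their RefSeq transcription starts (table of GRCm38.p6) are shown to identify their promoters. Capitals mark a match to GGGCGG, the GC box bound by Sp1-type factors, searched on both strands; the match in Usp27x lies on the opposite strand. The Uchl1 sequence is on the plus strand at chr5:66675871-66676120 and the Usp27x sequence on the minus strand at chrX:7375831-7376080.
Uchl1: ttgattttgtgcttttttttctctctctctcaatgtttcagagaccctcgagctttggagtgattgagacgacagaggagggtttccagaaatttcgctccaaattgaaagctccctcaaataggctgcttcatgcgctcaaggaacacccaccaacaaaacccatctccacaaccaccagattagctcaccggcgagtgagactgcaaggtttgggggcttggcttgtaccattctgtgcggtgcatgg
Usp27x: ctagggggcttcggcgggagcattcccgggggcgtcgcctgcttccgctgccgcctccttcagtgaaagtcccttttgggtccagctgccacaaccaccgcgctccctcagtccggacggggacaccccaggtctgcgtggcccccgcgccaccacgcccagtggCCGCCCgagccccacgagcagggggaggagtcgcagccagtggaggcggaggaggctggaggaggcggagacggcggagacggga
The 2 sequences lie far apart in composition. That of Uchl1 holds 48.8% G or C and 7 CpG, and that of Usp27x 72.4% and 24 CpG. In windows of 250 bases before the start, 47 of the 60 members could be matched, with a median of 64.8% G or C and 22 CpG, against 57.2% and 12 CpG over 13980 array genes. GGGCGG lay in 66.0% of the members' windows and in 48.6% of the windows of array genes, and TATAAA in 4.26% and 9.71%. These are counts of letters and say nothing of which factors bind.

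The array table and the mice had the following properties. Values spanned 5.66 to 15.93, with at most 0.0451 between arrays at any rank after sorting. Arrays of a mouse correlated at a median r of 0.994 over probes and arrays of different mice of a group at 0.987. Of 10 measured stem and progenitor markers 7 were higher in LSK cells in either genotype. Of 12 myeloid progenitor markers, 9 were lower in LSK cells of WT mice and 7 in those of KO mice. Among 8 mature granulocyte markers, 4 were higher in LSK cells of WT mice and 2 in those of KO mice. In WT mice their summed log2 level was 15.91 to 16.16 in LSK cells and 15.01 to 15.26 in myeloid progenitors. The probe for Bap1 read 11.55 and 11.45 in WT LSK cells, 11.96 and 11.84 in KO LSK cells, 11.54 and 11.59 in WT myeloid progenitors and 11.67 and 11.85 in KO myeloid progenitors. It was thus not lower under the KO label (0.30 ± 0.13 averaged over both populations, limma adjusted p = 0.246). The sources used here do not place this probe inside or outside the deleted stretch, so it checks no label. A Y-linked gene, Kdm5d, read 7.88 in WT mouse 1 (LSK) and 8.15 in WT mouse 5 (myeloid progenitors). In the other mice it read between 5.93 and 6.03, so those 2 WT mice stand apart from the rest. An X-linked gene, Xist, read lowest in the same mice (7.37 and 7.28, against 7.51 to 7.87 in the others). No KO mouse showed the Kdm5d signal, and the labels do not give the sex of the mice. A part of it in the genotype differences, those of X-linked members included, cannot be told apart. An alternative setting left out both mouse 1 and mouse 5. It keeps a lone WT mouse per population and so has less precision, and a call lost there cannot be laid to these mice. Of 9 B-lineage markers, 6 were lower in KO than in WT LSK cells and 5 were lower in KO myeloid progenitors. The log2 of their summed level was 14.34 to 14.52 in WT and 11.26 to 11.91 in KO LSK cells. In myeloid progenitors it was 13.49 to 14.17 in WT and 11.37 to 11.46 in KO mice. Ebf1, Pax5, Vpreb3, Ms4a1 and Blnk were under 6.5 in both KO groups. Pax5 was under 6.5 in WT LSK cells too, as were Pax5, Ms4a1 and Blnk in WT myeloid progenitors. Of 12 myeloid progenitor markers, 3 were higher in KO LSK cells (summed log2 16.40 to 16.86 against 16.06 to 16.48 in WT) and none passed in myeloid progenitors. No stem and progenitor marker passed in LSK cells (summed log2 16.03 to 16.14 in KO against 16.28 to 16.57 in WT). In KO myeloid progenitors 1 of these 10 was lower, and 1 was lower in the average. Markers of other cells also passed between genotypes, in both directions. In LSK cells, myeloid progenitors and the average they were 3, 2 and 5 of 7 monocyte and macrophage markers, 2, 3 and 4 of 8 mast cell and basophil markers, 3, 2 and 4 of 8 megakaryocyte markers and 2, 0 and 2 of 8 T and NK markers. In WT and KO LSK cells the summed log2 levels were 11.84 to 12.18 and 11.95 to 12.41 (monocyte), 13.04 to 13.19 and 13.80 to 14.01 (mast cell), 12.70 to 13.06 and 12.53 to 12.88 (megakaryocyte) and 11.31 to 11.40 and 12.12 to 12.15 (T and NK). In WT and KO myeloid progenitors they were 13.10 to 13.10 and 12.24 to 12.51, 14.57 to 14.82 and 14.84 to 15.00, 13.28 to 13.54 and 13.51 to 13.73, and 12.45 to 12.87 and 12.70 to 12.98, in the same order. The part of these shifts in the results for deubiquitinases was not tested, and in sorted bulk RNA fewer cells of a type and less RNA per cell cannot be told apart.

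Signals of the members covered most of the range of the array. The probes of 45 members lay above the median probe mean of 7.196 and those of 4 members were under 6.5 in all 4 groups. A probe's brightness depends on its sequence as well as on its transcript, so levels are compared between groups and not between genes. The brightest probes that differed in no comparison were those of Usp14, which acts on ubiquitin chains at the proteasome (12.77 in WT LSK, 13.30 in KO LSK, 13.36 in WT and 13.54 in KO myeloid progenitors), Otud4 (12.83 to 13.00 over the 4 group means), the endoplasmic reticulum-anchored Usp19 (12.63 to 13.22), the spliceosome component Usp39 (12.65 to 12.94) and Usp10, a partner of the stress granule protein G3BP (12.25 to 12.38). The dimmest were those of Usp50 (5.97 to 6.02), Usp13 (6.00 to 6.05), Otud6a (6.06 to 6.28), Usp51 (6.05 to 6.41) and Usp32 (6.25 to 6.53), where a difference could not have been measured well. Between mice of a group the members had a median standard deviation of 0.192, against 0.152 over all genes.

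**Figure D1:**
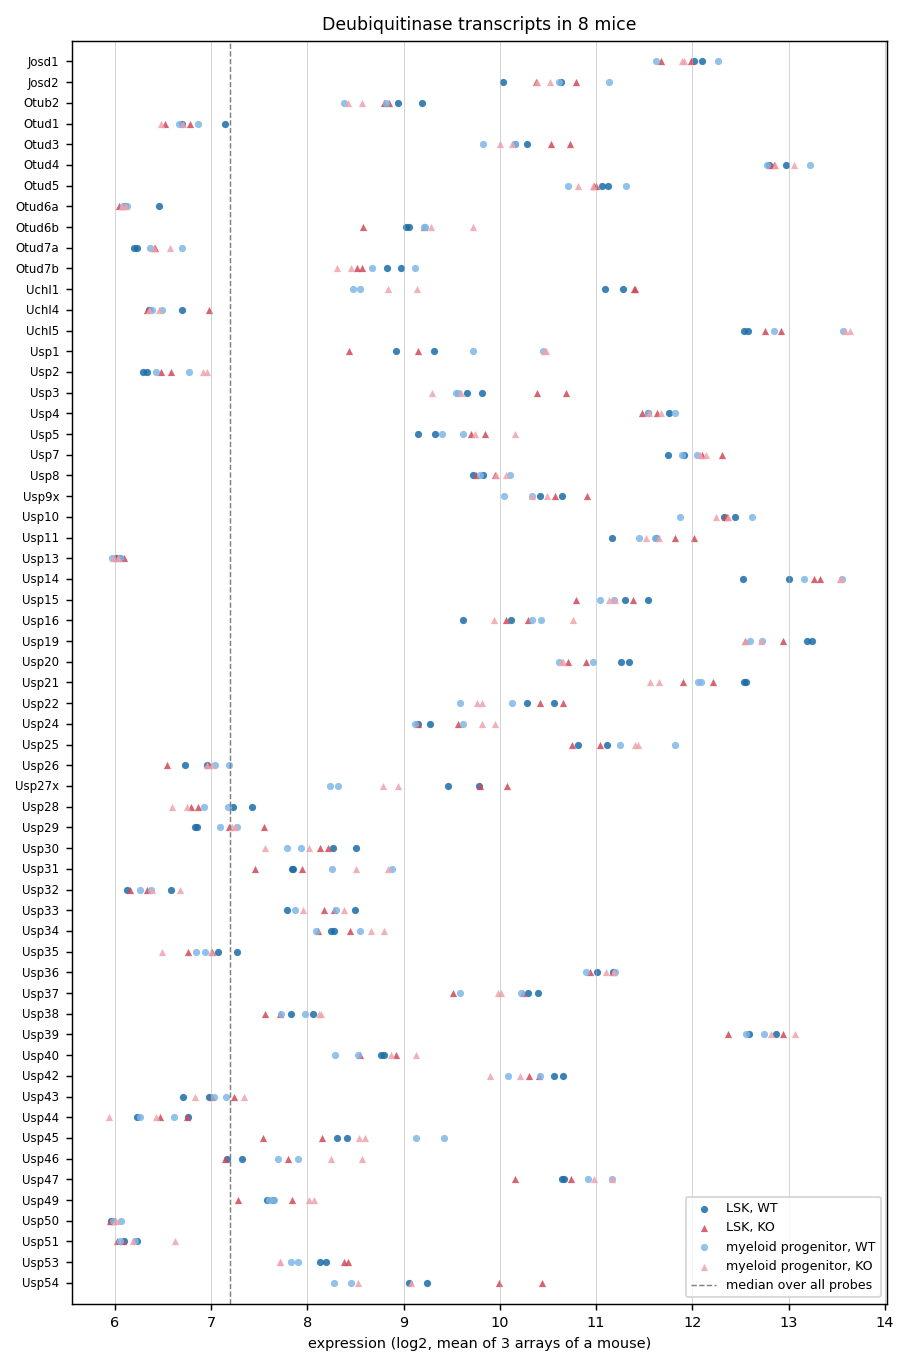
Expression (log2, mean of the 3 arrays of a mouse) of the 60 deubiquitinase transcripts in 8 mice; circles are WT and triangles KO mice, dark symbols LSK cells and pale symbols myeloid progenitors, and the dashed line is the median over all probes (7.196). For most genes the 8 symbols lie close together; Uchl1 is split by population, with LSK cells at 11.09 to 11.41 and myeloid progenitors at 8.48 to 9.14.

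Few transcripts of other deubiquitinases passed between genotypes. In LSK cells 1 of 60 members passed the test, Usp54, which rose (1.67%, against 4.64% of all genes called in either direction and 1.74% called higher). In myeloid progenitors none passed (0%, against 2.64% of all genes). Averaged over both populations 3 passed: Usp54 rose, and Usp28 and Usp45 fell (5%, against 7.95% of all genes, 3.09% called higher and 4.85% called lower). The test was limma's moderated test on mouse means, adjusted by the Benjamini-Hochberg method over all 22439 probes, with a threshold of 0.05. At an unadjusted p under 0.05 there were 11 members in LSK cells (18.3%, against 16.6% of all genes), 9 in myeloid progenitors (15%, against 11.4%) and 14 in the average (23.3%, against 19.5%). After adjustment the members' shares were below those of all genes in these 3 comparisons, and before adjustment slightly above. With all arrays fitted and the mouse as a random block, 11, 6 and 13 members passed in the same order (18.3%, 10% and 21.7%, against 15.1%, 9.18% and 18% of all genes under that fit). That fit uses single arrays and not mouse means, so its counts rest on another unit.

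Sizes were small in both directions. The KO minus WT difference of the members ran from -0.52 to 1.07 in LSK cells, with a median of -0.04, and from -0.71 to 0.61 in myeloid progenitors, with a median of 0.04. Their median absolute difference was 0.223 in LSK cells and 0.139 in myeloid progenitors, against 0.140 and 0.107 over all genes. Members tend to be bright: among the 47 with at least 1 population and genotype brighter than the median probe, the median absolute difference in LSK cells was 0.245, and among all genes of that kind it was 0.256. In myeloid progenitors it was 0.1403 among these 47 members, below the 0.1935 among all genes of that kind. The 95% confidence interval of the averaged difference lay within 2-fold for 59 of 60 members (98.3%, against 93.1% of all genes), the exception being Usp54. In LSK cells alone it did so for 55 members (91.7%, against 84.4%) and in myeloid progenitors for 53 (88.3%, against 88.2%). Among the 47 brighter members it did so for 46 in the average, 42 in LSK cells and 40 in myeloid progenitors. These are 97.9%, 89.4% and 85.1%, against 88.7%, 74.8% and 81.1% of all genes of that kind. For most of the 47 these mice thus set a bound of under 2-fold, while a narrow interval of a dim probe says little. Over all 60 members the median half-width of the interval was 0.469 in one population and 0.332 in the average.

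**Figure D2:**
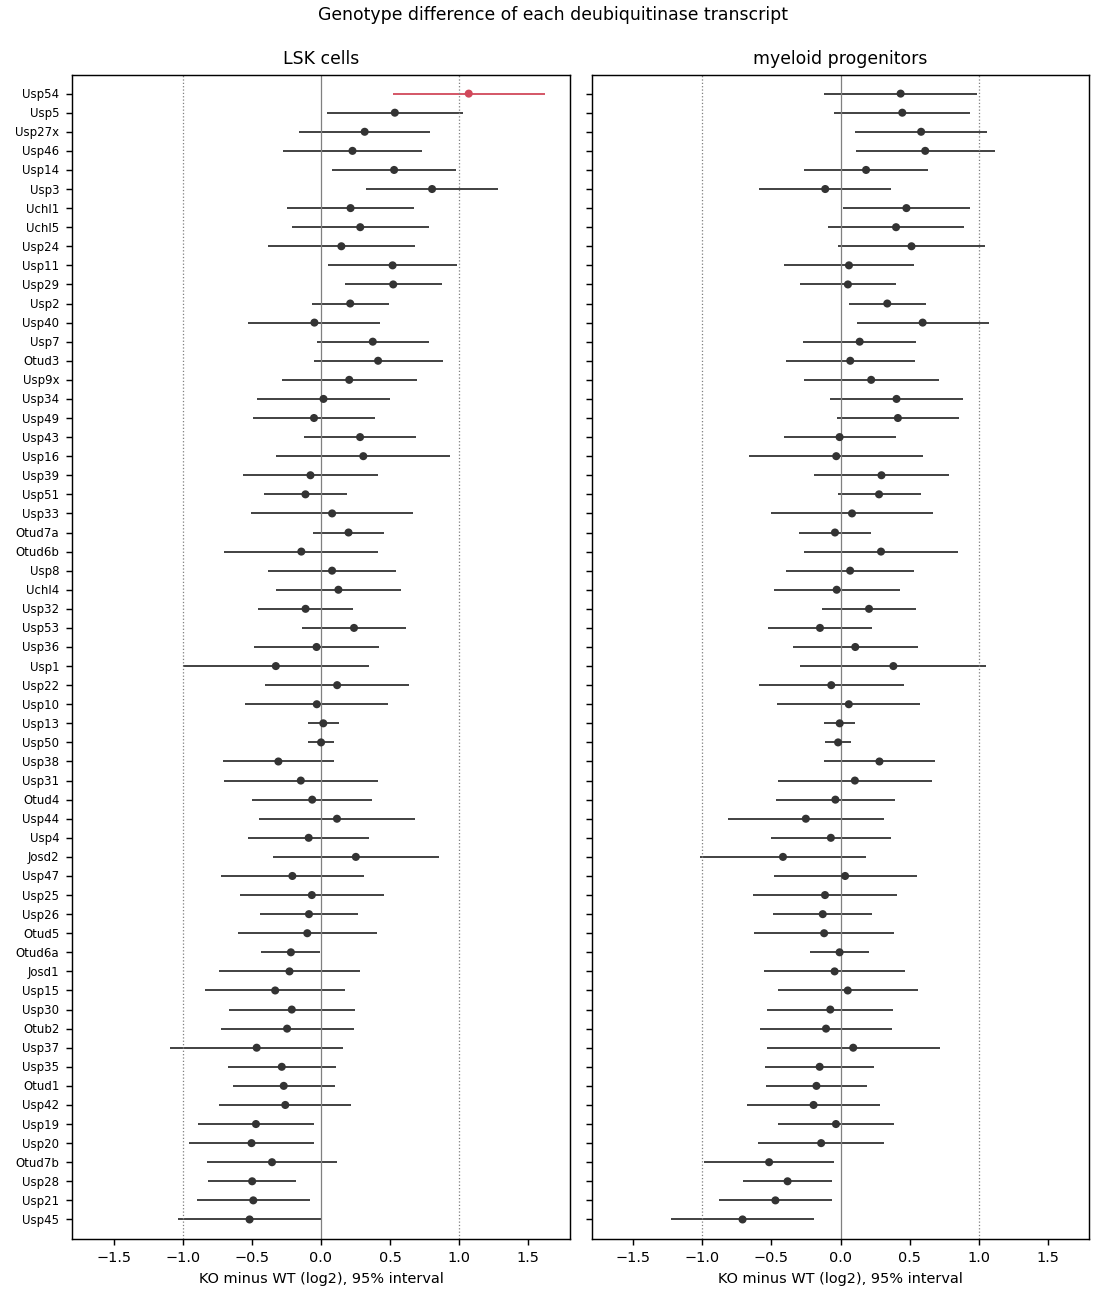
KO minus WT difference (log2) of each of the 60 deubiquitinase transcripts in LSK cells (left) and myeloid progenitors (right), in the order of the averaged difference; bars are 95% confidence intervals from limma over 2 mice per group, red marks an adjusted p under 0.05 and dotted lines are 2-fold. Usp54 in LSK cells is the only red entry, at 1.07.

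Usp54, a little-studied member of the USP family, was the member that rose. Its level (probe mMC014866) was 9.24 and 9.06 in the WT and 10.44 and 9.995 in the KO LSK mice, and 8.46 and 8.28 in the WT and 8.53 and 9.08 in the KO myeloid progenitor mice. KO mice lay above WT mice in both populations without overlap, by a wide gap in LSK cells and by a narrow one in myeloid progenitors. In LSK cells it was 2.10-fold higher in KO mice (log2 1.07 ± 0.25, 95% interval 0.52 to 1.62, limma adjusted p = 0.0385), and in myeloid progenitors the difference of 0.43 ± 0.25 did not pass (adjusted p = 0.633). The 2 differences were not shown to be unequal (0.63, interval -0.15 to 1.42, adjusted p = 0.874). Averaged over both populations it was 1.68-fold higher (0.75 ± 0.18, adjusted p = 0.0259). The LSK call depended on which mice were fitted. It was lost without mouse 1 (difference 1.16), mouse 2 (0.85), mouse 3 (0.98), mouse 5 (1.07) or mouse 6 (1.07), and without both Kdm5d-positive mice (1.16). It was also lost with the LSK groups fitted alone (limma adjusted p = 0.0649) and without the trend and robust settings of eBayes (adjusted p = 0.0825). The averaged call was lost on leaving out any 1 of mice 1, 2, 3, 5, 6 and 8, with values of 0.61 to 0.80 and adjusted p of 0.0527 to 0.137, without both Kdm5d-positive mice (0.84, 0.107) and without those settings (0.0570).

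Usp28, which stabilises MYC and takes part in p53 and DNA damage signalling, fell in the average. Its level (probe PH_mM_0008362) was 7.42 and 7.23 in WT and 6.86 and 6.79 in KO LSK cells, and 7.18 and 6.93 in WT and 6.59 and 6.75 in KO myeloid progenitors. Both KO groups lay below their WT group without overlap, near the median brightness of the array. The averaged difference was -0.44 ± 0.10 (1.36-fold lower, interval -0.67 to -0.21, limma adjusted p = 0.0243), made up of -0.50 in LSK cells (adjusted p = 0.0903) and -0.38 in myeloid progenitors (adjusted p = 0.307). It did not pass without mouse 1 (-0.39, 0.080), mouse 4 (-0.42, 0.0597), mouse 5 (-0.38, 0.0846), mouse 7 (-0.40, 0.0961) or mouse 8 (-0.48, 0.0557), nor without both Kdm5d-positive mice (-0.33, 0.186).

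Usp45, which acts on the ERCC1 subunit of a DNA repair nuclease, also fell in the average. Its level (probe PH_mM_0004921) was 8.41 and 8.31 in WT and 7.54 and 8.15 in KO LSK cells, and 9.13 and 9.42 in WT and 8.60 and 8.54 in KO myeloid progenitors. KO mice lay below WT mice in both populations, and among the LSK mice KO mouse 2 was far below KO mouse 4. The averaged difference was -0.61 ± 0.17 (1.53-fold lower, limma adjusted p = 0.0496), with -0.52 ± 0.23 in LSK cells and -0.71 ± 0.23 in myeloid progenitors, neither of which passed. The adjusted p lay just under the threshold, and leaving out any mouse but mouse 4 lost the call (-0.69 to -0.46, adjusted p 0.0682 to 0.169), as did leaving out both Kdm5d-positive mice (-0.66, 0.162), centring the arrays (adjusted p = 0.05004) and dropping the trend and robust settings (0.0805). The next member by adjusted p, Usp21, was just outside the threshold. Usp21, a histone H2A deubiquitinase, read 12.54 and 12.56 in WT and 12.21 and 11.90 in KO LSK cells, and 12.09 and 12.06 in WT and 11.56 and 11.65 in KO myeloid progenitors, an averaged difference of -0.48 ± 0.13 (adjusted p = 0.051).

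**Figure D3:**
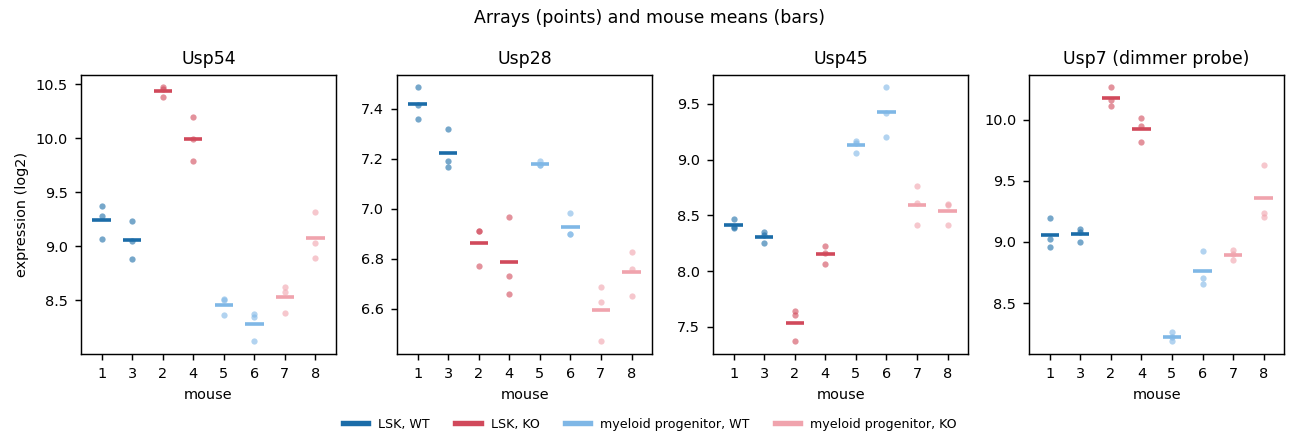
Expression (log2) on each array (points) and mean of each mouse (bars) for Usp54, Usp28 and Usp45, the members that passed between genotypes, and for the dimmer probe of Usp7; mice 1 and 3 are WT and 2 and 4 KO LSK cells, mice 5 and 6 WT and 7 and 8 KO myeloid progenitors. In each panel the KO mice lie on one side of the WT mice of their population.

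On the brightest probes, none of the 12 members that act on histone H2A or H2B or on chromatin passed between genotypes by limma. This held in LSK cells, in myeloid progenitors and in the average (0% each, against 4.64%, 2.64% and 7.95% of all genes). At an unadjusted p under 0.05 there were 3, 2 and 3 of them (25%, 16.7% and 25%, against 16.6%, 11.4% and 19.5% of all genes). Usp3, an H2A deubiquitinase, came closest in LSK cells. It read 9.81 and 9.66 in WT and 10.69 and 10.39 in KO LSK cells, and 9.57 and 9.54 in WT and 9.29 and 9.60 in KO myeloid progenitors. The KO LSK mice stood above the other 6 mice, which lay close together. The LSK difference was 0.80 ± 0.22 (1.75-fold, interval 0.33 to 1.28, adjusted p = 0.069), that in myeloid progenitors was -0.11 (interval -0.59 to 0.37), and the difference between them, the largest of any member at 0.91 ± 0.31, did not pass (adjusted p = 0.579). For Usp16, the H2A deubiquitinase required for chromosome segregation, the averaged difference was 0.14 with an interval of -0.31 to 0.58, and for Usp22, the H2B deubiquitinase of the SAGA complex, 0.02 with an interval of -0.34 to 0.39. For Usp36 of the nucleolus it was 0.04 (-0.28 to 0.36). Of the others, Usp42 lay at -0.23 and Usp11 at 0.29 in the average. The averaged differences of the 12 ran from -0.48 for Usp21, described above, to 0.45 for Usp27x (limma adjusted p = 0.120). Usp7 belongs to the 12 as well, and its dimmer probe passed in the average, as given next.

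Usp7, which deubiquitinates MDM2 and p53 as well as Polycomb proteins, was read by a pair of probes that gave different answers to the test. Its brightest probe (PH_mM_0013271) gave 11.75 and 11.91 in WT and 12.10 and 12.30 in KO LSK cells, and 11.89 and 12.05 in WT and 12.08 and 12.14 in KO myeloid progenitors. Its averaged difference was 0.26 ± 0.13 (adjusted p = 0.341). The dimmer probe (mMC015820) gave 9.06 and 9.06 in WT and 10.18 and 9.93 in KO LSK cells, and 8.23 and 8.76 in WT and 8.90 and 9.36 in KO myeloid progenitors. By that probe Usp7 was 1.76-fold higher in KO mice (0.81 ± 0.18, limma adjusted p = 0.0175), and in LSK cells the difference of 0.99 stood just outside the threshold (adjusted p = 0.0524). On both probes all KO mice lay above the WT mice of their population. The probes may report different transcripts of the gene; the sources used here do not say which. Usp19 likewise gave -0.47 on its brightest and 0.69 on its other probe in LSK cells, opposite signs of which neither passed (adjusted p = 0.240 and 0.107), so no direction is given for it. Usp14 gave 0.53 and -0.09 on its probes in LSK cells, again with no call.

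The closest relatives of BAP1 did not pass between genotypes. Uchl5, which sits on the proteasome and on the INO80 remodeller, had an averaged difference of 0.34 (interval -0.01 to 0.69, adjusted p = 0.281), and Uchl1 one of 0.35 (0.02 to 0.67, adjusted p = 0.235). In both genes every KO mouse exceeded the WT mice of its population. Uchl4, a retrocopy related to Uchl3, had a dim probe whose signal may come partly from that relative, and it differed by 0.05. Uchl3, Otub1, Usp9y, Usp12 and Usp48 were not analysed here.

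Of 8 members listed under DNA repair or checkpoint signalling, 1 passed between genotypes, Usp28 in the average (12.5%, against 7.95% of all genes). Usp45, described above by its repair substrate, was listed among less characterised members and is not counted in these 8. Usp1, which deubiquitinates FANCD2 and PCNA, differed by -0.33 in LSK cells and 0.38 in myeloid progenitors, and neither passed. Usp20 lay at -0.50 in LSK cells (adjusted p = 0.253) and Usp29 at 0.52 (adjusted p = 0.104). The 16 members placed under signalling and endosomal sorting held 1 called gene, Usp54, in LSK cells and in the average (6.25%, against 4.64% and 7.95% of all genes). Usp46 and Usp40 lay at 0.61 and 0.59 in myeloid progenitors with adjusted p of 0.297 and 0.283, and Usp24 had an averaged difference of 0.33. Usp9x, a large X-linked member, lay at 0.21. Usp5, which disassembles unanchored ubiquitin chains and so restores free ubiquitin, read 9.15 and 9.33 in WT and 9.85 and 9.70 in KO LSK cells, and 9.40 and 9.61 in WT and 9.75 and 10.16 in KO myeloid progenitors. Its averaged difference of 0.49 ± 0.16 did not pass (adjusted p = 0.0994). Among 9 OTU members none passed in any of the 6 comparisons (0% each, against 0.062% to 13.5% of all genes). Below 0 lay 7 in LSK cells, 7 in myeloid progenitors and 6 in the average. Of all 17741 genes, 8079, 8789 and 8138 did so. The 7 were not the same genes in both populations, and some lay near 0, such as Otud6a at -0.007 in myeloid progenitors. Otud7b, which prefers chains linked through lysine 11, was the lowest at -0.44 in the average (limma adjusted p = 0.129). Neither Josd1 nor Josd2 passed. The mitochondrial Usp30 and Usp35 lay at -0.14 and -0.22 in the average.

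The separation of the mice was counted as well. All KO mice exceeded all WT mice for 15 members in LSK cells and for 17 in myeloid progenitors (25% and 28.3%, against 25.7% and 20.3% of all genes), and lay below them for 16 and 7 (26.7% and 11.7%, against 20.9% and 20.8%). In both populations KO mice were higher for Uchl1, Uchl5, Usp2, Usp5, Usp7, Usp27x and Usp54 (11.7%, against 8.27% of all genes) and lower for Otud7b, Usp21, Usp28 and Usp45 (6.67%, against 9.24%). Usp38 and Usp53 separated in opposite directions in the populations (3.33%, against 4.31%), with differences of -0.31 and 0.28 for Usp38. No member had genotype differences that were unequal in the populations by the interaction test (0%, against 0.062% of all genes). At an unadjusted p under 0.05 there were 2 members, Usp3 and Usp38 (3.33%, against 6.35% of all genes), and with all arrays and the mouse as a random block 1 member was called (1.67%, against 2.56% of all genes under that fit). That test was weak: its interval lay within 2-fold for 39 members (65%, against 74% of all genes).

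Differences between the populations were larger than those between genotypes. Between LSK cells and myeloid progenitors of WT mice 3 members passed (5%, against 13.5% of all genes, 8.08% higher and 5.46% lower): Uchl1 and Usp27x were higher and Usp45 was lower in LSK cells. Between those of KO mice 9 passed (15%, against 12.8% of all genes, 7.26% higher and 5.49% lower), with Uchl1, Usp54, Usp3, Usp27x and Usp53 higher and Usp1, Usp46, Usp31 and Uchl5 lower in LSK cells. Uchl1 and Usp27x passed in both. At an unadjusted p under 0.05 there were 17 members in WT and 20 in KO mice (28.3% and 33.3%, against 27.3% and 26.2% of all genes), and the interval lay within 2-fold for 46 and 44 (76.7% and 73.3%, against 77.1% and 76.9%). The unequal counts of 3 and 9 do not show a difference between genotypes: the interaction test called no member, and the counts were 9 and 11 of 45 when only probes above the median mean were tested (20% and 24.4%, against 26.4% and 26.5% of all genes there).

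Uchl1, best known as an abundant neuronal hydrolase, showed the largest population difference of any member. Its level (probe PH_mM_0001072) was 11.09 and 11.28 in WT and 11.41 and 11.40 in KO LSK cells, and 8.48 and 8.55 in WT and 8.84 and 9.14 in KO myeloid progenitors. All 4 LSK mice lay well above all 4 myeloid progenitor mice. It was 6.38-fold higher in LSK cells of WT mice (2.67 ± 0.21, limma adjusted p = 5.93e-05) and 5.32-fold higher in those of KO mice (2.41 ± 0.21, adjusted p = 0.000171), and the ratio did not differ detectably between genotypes (-0.26, interval -0.91 to 0.39). Both calls held in all 16 alternative settings, with values of 2.58 to 2.77 in WT and 2.26 to 2.57 in KO mice.

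Usp27x, the X-linked relative of Usp22 that acts on H2B with the shared adaptor Atxn7l3, was also higher in LSK cells. It read 9.79 and 9.46 in WT and 10.08 and 9.80 in KO LSK cells, and 8.32 and 8.24 in WT and 8.94 and 8.79 in KO myeloid progenitors (probe PH_mM_0005643). The ranges of the populations did not overlap in either genotype. The difference was 2.54-fold in WT (1.34 ± 0.22, adjusted p = 0.00258) and 2.11-fold in KO mice (1.08 ± 0.22, adjusted p = 0.00915). The WT call was lost without both Kdm5d-positive mice (1.22, adjusted p = 0.0863) and the KO call without mouse 2 (0.94, 0.0574), mouse 7 (1.15, 0.0509) or mouse 8 (1.00, 0.0828). Usp45 was 1.88-fold lower in LSK cells of WT mice (-0.91 ± 0.23, adjusted p = 0.0272) and lay at -0.72 in KO mice (adjusted p = 0.0726). The WT call was lost without any 1 of mice 1, 3, 5 and 6 (-1.06 to -0.77, adjusted p 0.0559 to 0.136) and without both Kdm5d-positive mice (-1.12, 0.151).

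Usp1 stood lowest in LSK cells relative to myeloid progenitors. It read 9.32 and 8.92 in WT and 8.43 and 9.15 in KO LSK cells, and 10.45 and 9.72 in WT and 10.45 and 10.48 in KO myeloid progenitors (probe PH_mM_0013599). All LSK mice lay below all myeloid progenitor mice. The difference was 3.19-fold in KO mice (-1.67 ± 0.31, limma adjusted p = 0.00587), a call that held in all 16 alternative settings, and 1.95-fold in WT mice (adjusted p = 0.0641). Usp46, a relative that like Usp1 is activated by Wdr48, read 7.32 and 7.16 in WT and 7.14 and 7.79 in KO LSK cells, and 7.90 and 7.69 in WT and 8.25 and 8.57 in KO myeloid progenitors (probe PH_mM_0006500). It was 1.92-fold lower in LSK cells of KO mice (-0.94 ± 0.23, adjusted p = 0.0224) and lay at -0.55 in WT mice. The call was lost without mouse 2 (-0.61, 0.165), mouse 7 (-1.10, 0.0502) or mouse 8 (-0.78, 0.150). It was also lost without both Kdm5d-positive mice (-0.94, 0.0531), with the KO groups fitted alone (0.0538) and without the trend and robust settings (0.0611).

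Uchl5 was lower in LSK cells as well. It read 12.54 and 12.57 in WT and 12.76 and 12.93 in KO LSK cells, and 13.57 and 12.85 in WT and 13.64 and 13.58 in KO myeloid progenitors (probe mMR030943). The KO difference was -0.77 ± 0.22 (adjusted p = 0.0473) and the WT difference -0.65 (adjusted p = 0.0853). Leaving out any 1 of mice 1, 2, 3, 4, 7 and 8 lost the KO call (-0.86 to -0.69, adjusted p 0.0629 to 0.205), as did dropping the trend and robust settings (0.0924) and testing 1 averaged probe per gene (0.0527). Usp31 read 7.84 and 7.86 in WT and 7.46 and 7.95 in KO LSK cells, and 8.26 and 8.88 in WT and 8.84 and 8.51 in KO myeloid progenitors (probe PH_mM_0015206). It was 1.96-fold lower in LSK cells of KO mice (-0.97 ± 0.25, adjusted p = 0.0304), but its other probes, both dim, differed less. PH_mM_0001849, at 5.94 to 6.26 near the floor of the array, gave -0.25 (adjusted p = 0.0397) and PH_mM_0015207 gave -0.05 (adjusted p = 0.785). The mean of the 3 probes gave -0.42 and did not pass (adjusted p = 0.0506). The call of the brightest probe was lost without mouse 2 (-0.73, 0.197), mouse 7 (-0.80, 0.193) or mouse 8 (-1.14, 0.0667), and without the trend and robust settings of eBayes (0.0732).

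The other 3 members called in KO mice were higher in LSK cells. Usp54, with the levels given above, was 2.67-fold higher (1.41 ± 0.25, adjusted p = 0.00493) and lay at 0.78 in WT mice (adjusted p = 0.0674). Without mouse 7 its KO call was lost (1.14, 0.0585). Usp3 was 2.14-fold higher (1.10 ± 0.22, adjusted p = 0.00864) and lay at 0.18 in WT mice, and its call was lost without mouse 2 (0.94, 0.0546) or mouse 7 (0.94, 0.0963). Usp53, which is linked to cell junctions, read 8.20 and 8.13 in WT and 8.38 and 8.42 in KO LSK cells, and 7.83 and 7.91 in WT and 7.72 and 7.72 in KO myeloid progenitors (probe mMR027803). Mouse means of a group lay closer together for it than for most members, and those of the populations did not overlap. Single arrays of Usp53 spread more within a mouse, for example 7.49 to 8.06 in WT mouse 5, and those of the WT populations overlapped. Its difference was 0.68 ± 0.17 in KO mice (1.61-fold, adjusted p = 0.0254) and 0.30 in WT mice (adjusted p = 0.315), and its KO call was lost without mouse 2, 4, 7 or 8 (0.66 to 0.70, adjusted p 0.0575 to 0.143).

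**Figure D4:**
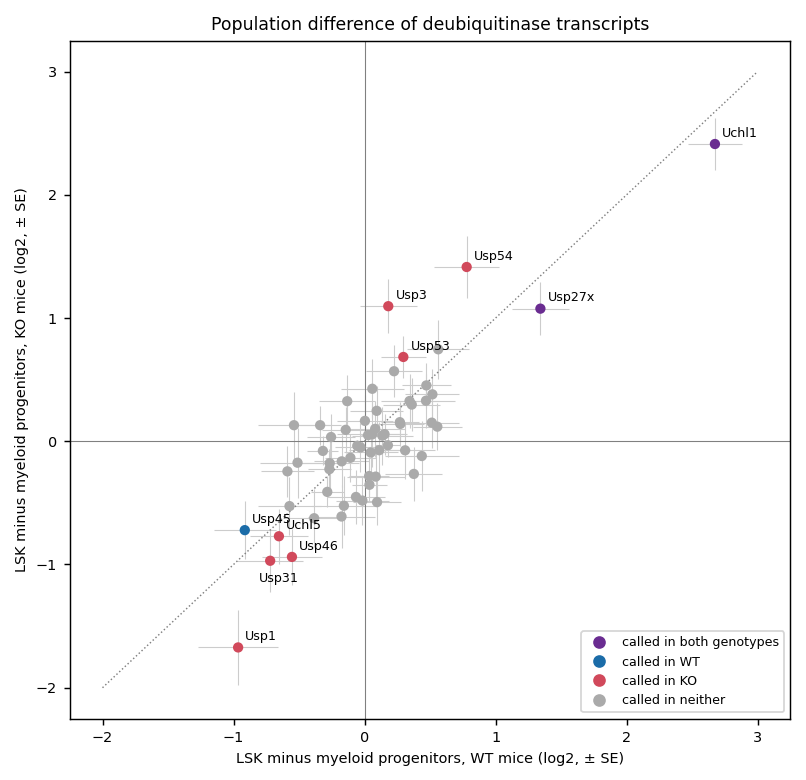
LSK minus myeloid progenitor difference (log2, ± SE) of each of the 60 deubiquitinase transcripts in WT mice (horizontal) and KO mice (vertical), 2 mice per group; colours mark an adjusted p under 0.05 in both genotypes, in WT, in KO or in neither, and the dotted line is equality. Uchl1 stands apart at 2.67 and 2.41, and Usp3 lies off the line at 0.18 and 1.10.

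By mice, 13 members were higher in LSK cells in both genotypes without overlap (21.7%, against 15.7% of all genes) and 11 were lower in both (18.3%, against 18.2%). The higher ones were Otub2, Uchl1, Usp3, Usp9x, Usp20, Usp21, Usp22, Usp27x, Usp28, Usp30, Usp42, Usp53 and Usp54. The lower ones were Otud6b, Uchl5, Usp1, Usp2, Usp14, Usp25, Usp31, Usp45, Usp46, Usp47 and Usp50. For Usp14 the other probe (PH_mM_0005103) was higher in LSK cells of WT mice without overlap (0.11). In KO mice that probe overlapped between the populations (-0.36). Usp50, with mouse means of 5.95 to 6.07, lay near the floor of the array. Median absolute differences of the members were 0.269 in WT and 0.274 in KO mice, against 0.187 and 0.178 over all genes. Among the 47 members with at least 1 bright group, as above, they were 0.339 and 0.325, and among all genes of that kind 0.363 and 0.367.

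Genes of deubiquitinase families outside the naming rule were read from a list of 29, of which 26 were measured. The list went by family and did not require enzyme activity. It held Bap1 itself and relatives such as Eif3f, Eif3h, Prpf8 and Pan2. Shares below are of all 26 genes and not of active deubiquitinases alone. In LSK cells 1 of these fell in KO mice (3.85%, against 4.64% of all genes called), in myeloid progenitors none passed (0%, against 2.64%) and in the average 3 fell (11.5%, against 7.95%). At an unadjusted p under 0.05 in limma there were 6 in LSK cells and 6 in myeloid progenitors (23.1% each, against 16.6% and 11.4% of all genes). Stambpl1, a metalloprotease that cuts chains linked through lysine 63, read 9.05 and 9.23 in WT and 8.05 and 8.16 in KO LSK cells, and 8.79 and 8.94 in WT and 8.17 and 8.05 in KO myeloid progenitors. All KO mice lay below all WT mice, and the difference was -1.03 ± 0.19 in LSK cells (2.05-fold lower, adjusted p = 0.0135) and -0.89 ± 0.14 in the average (adjusted p = 0.00257). Tnfaip3 (A20), an inhibitor of NF-kB signalling, read 10.66 and 9.50 in WT and 9.20 and 9.07 in KO LSK cells and fell by 0.85 ± 0.23 in the average (adjusted p = 0.0499). The catalytically inactive Otulinl fell by 0.86 ± 0.21 (adjusted p = 0.0312). Of 18 measured cofactors of deubiquitinases, 1 fell in the average (5.56%, against 7.95% of all genes). It was Gmps, a nucleotide synthesis enzyme that binds Usp7 (-0.72 ± 0.17, limma adjusted p = 0.0285). Of 7 proteases for SUMO and Nedd8, 2 fell in LSK cells (28.6%, against 4.64% of all genes). They were Senp6 and Senp8 (-0.39 and -0.71, limma adjusted p = 0.0494 and 0.0461). Neither passed in myeloid progenitors or in the average (limma adjusted p = 0.116 and 0.0881 in the average). Senp6 was dim, with means under 6.5 in every group except WT LSK cells. The B-lineage and other markers given above differed in the same mice, and their part in these differences was not tested. Left-out mice were not tried for these genes.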

How the data were processed

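RNA of sorted bone marrow cells was measured on 24 one-colour arrays of 8 mice. The authors deposited log2 expression values for 22439 probes, made with limma according to the submitters' processing notes, which give no version. The sources used here do not state the background correction or filters. That the values are log2 and quantile-like was read from their range and their equal sorted values. Gene names came from the platform annotation, updated through RefSeq symbols of GRCm38.p6; 2064 probes have no symbol. The 3 arrays of a mouse were averaged, and limma 3.58.1 in R 4.3.3 (lmFit, eBayes with trend and robust settings) was fitted to the 8 mouse means of all 4 groups, with 4 residual degrees of freedom. P-values were adjusted by the Benjamini-Hochberg method over all probes, with a threshold of 0.05, and the code was tested on simulated data. Values after ± are standard errors of the difference. All genes are the 17741 genes at their brightest probe. Any member could be named; those past the threshold in any of the 6 comparisons have every mouse's value, the others are named by role, brightness or size of difference. The members, lists and tests were chosen with earlier results of these data known. Alternatives were the single arrays, other eBayes settings, brightness, centring, probe choice, the compared groups alone and left-out mice. Arrays give no count depth; 2 mice per group limit the precision.

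The title's array number (1 to 3 within a mouse) did not pair arrays of different mice: deviations of arrays with the same number correlated at a median r of -0.00697 (-0.299 to 0.423).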

Additional observations from a re-analysis of the deposited data

Results flagged for a closer look

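The dimmer probe of Usp7 (mMC015820) was not part of the comparison of brightest probes, and it passed where the brightest did not. Its averaged KO minus WT difference was 0.81 (limma adjusted p = 0.0175), higher in 4 of 4 KO mice than in the WT mice of their population, against 0.26 (adjusted p = 0.341) for the brightest probe. Between LSK cells and myeloid progenitors of KO mice it differed by 0.92 (adjusted p = 0.0354), against 0.09 for the brightest probe. With 2 mice per group a single outlying mouse could not be looked for by a test of the gap, and no member passed the test for a genotype difference that is unequal in the populations.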

How the results depend on the processing

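Members called are given in the order KO minus WT in LSK cells, in myeloid progenitors, in the average, its difference between populations, LSK minus myeloid progenitors in WT and in KO: 1, 0, 3, 0, 3 and 9. With all 24 arrays and the mouse as a random block (consensus correlation 0.442) they were 11, 6, 13, 1, 19 and 20. Of the members these were 18.3%, 10%, 21.7%, 1.67%, 31.7% and 33.3%. Of all genes under that fit 15.1%, 9.18%, 18%, 2.56%, 26.4% and 26.1% passed. With the array number added as a replicate block the counts were 11, 6, 14, 1, 19 and 19. Without the trend and robust settings the counts were 0, 0, 2, 0, 4 and 6, and with probes above the median mean alone 2, 0, 3, 0, 9 and 11. For these bright probes the shares were 4.44%, 0%, 6.67%, 0%, 20% and 24.4% of 45 members. Of all genes there 8.13%, 5.26%, 13.9%, 0.324%, 26.4% and 26.5% passed. In the other alternative settings the share of all genes was not counted, so their counts are not read as a trait of the members. Centring gave 1, 0, 2, 0, 3 and 9, and the mean of a gene's probes 1, 0, 4, 0, 3 and 7. With the compared groups alone LSK held 0, myeloid progenitors 0, WT 4 and KO 8; the other 2 comparisons need all groups. Without both Kdm5d-positive mice they were 0, 0, 0, 0, 1 and 8. Leaving out 1 mouse gave 0 to 2, 0 to 1, 0 to 3, 0 to 0, 2 to 6 and 3 to 12; in the average none of the 3 calls was kept without mouse 1, 5 or 8. In KO mice 3 of the 9 calls were kept without mouse 2, 2 without mouse 7 and 4 without mouse 8. The lone mouse left is then assumed to vary like the others. No called difference changed sign in any setting. Calls of Uchl1 in both genotypes and of Usp1 in KO mice held in all 16 settings; Usp54 in LSK cells lost its call in 8 of 16, Usp28 in 6 of 14 and Usp45 in 10 of 15 (the average). No counts lie behind array values, so depth is unknown and 2 mice per group set the limit.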
